A study of Arabidopsis thaliana with 23 samples.

Results

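REF6 binding sites that lay away from the H3K27me3 mark are described here: summits of REF6-GFP peaks with DSG that lie more than 1 kb from every H3K27me3 domain, both of the demethylase triple mutant and of the wild type. The members were chosen by the measured positions of the REF6-GFP summits and of the called domains, so distances and coverage are given as a description. This rule selected 2253 of the 5393 summits, or 41.8% (Wilson 95% interval 40.5 to 43.1%), and they are called distant summits below. The samples were closed flowers taken from Arabidopsis thaliana of the Col-0 background at 5 weeks of age, grown without treatment in long days at 22 °C by day and 20 °C by night. REF6-GFP was expressed in the ref6-3 mutant and precipitated through its GFP tag, from chromatin crosslinked with DSG (3 samples) and without DSG (3 samples). DSG crosslinks proteins with one another and can thereby hold complexes on chromatin. A second construct, REF6-ZnF-GFP, was precipitated after DSG from the triple mutant, written elf6-3ref6Cjmj13G in the labels (2 samples), and from ref6 (3 samples, whose genotype entry names REF6p::REF6-GFP ref6-3 instead). What the ZnF construct keeps or lacks is not stated in the labels. H3K27me3 was profiled in the triple mutant, for which the labels name no tagged protein (2 samples), and in wild-type plants (2 samples). Each group is represented by 1 list called on its pooled samples, so no value below has a replicate error, no comparison has a test, and intervals cover counting error over peaks or genes only.

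H3K27me3 is deposited by Polycomb repressive complex PRC2 and marks silenced genes. REF6, ELF6 and JMJ13 are Jumonji-type demethylases that remove it, and REF6 reaches DNA through C-terminal zinc fingers that read a short sequence motif. In a mutant that lacks them, regions from which the mark is normally removed can become marked, and the distant summits are bound sites with no domain called nearby in that background. Whole flowers hold many cell types, so a mark carried by few cells and no mark cannot be told apart.

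More REF6 sites without the mark in the wild type lacked it in the triple mutant than carried it there. Of the 4023 summits more than 1 kb from any wild-type domain, 2253 (56.0%, 54.5 to 57.5%) were also more than 1 kb from any triple mutant domain, 1348 (33.5%) lay inside a triple mutant domain, and 422 lay outside one but within 1 kb. The share far from both was close to even along the genome, between 54.9% on chromosome 1 and 58.2% on chromosome 3. It went down with binding strength, measured as the fold enrichment that the authors deposited for each peak. When all peaks were divided into 5 groups of equal size by fold, 69.0% (65.6 to 72.2%) of such sites in the lowest group were far from the mark in the triple mutant too, as were 62.5%, 61.8% and 53.4% in the following groups and 37.3% (34.2 to 40.5%) in the highest. These values follow from the distances used to choose the sites.

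The distant summits were usually several kilobases from the mark. The median distance to the nearest domain was 4508 bp in the triple mutant and 5641 bp in the wild type, with 90% of the distances under 13272 bp in the triple mutant and 17348 bp in the wild type. By the nearer of the domains of both genotypes, 450 summits lay 1001 to 2000 bp away, 889 lay 2001 to 5000 bp away, 576 lay 5001 to 10000 bp away and 338 lay farther. The nearest domain was one of the triple mutant for 1254 summits and one of the wild type for 997. Beyond the distance that the rule fixed, the mark covered slightly more in the triple mutant: from 2 to 5 kb on either side of the summit, domains covered a mean of 13.3% in the triple mutant and 10.6% in the wild type. Within this band 739 summits had more coverage in the triple mutant, 565 had less and 949 had the same. The triple mutant list has more domains, 9391 against 7914 in the wild type. Coverage around other summits was not measured, so this excess is not read as particular to distant summits. At the limit itself, the 30 summits 1004 to 1050 bp away had a median fold of 4.58, and the 24 summits 951 to 998 bp away, just left out, had 4.77.

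**Figure D1:**
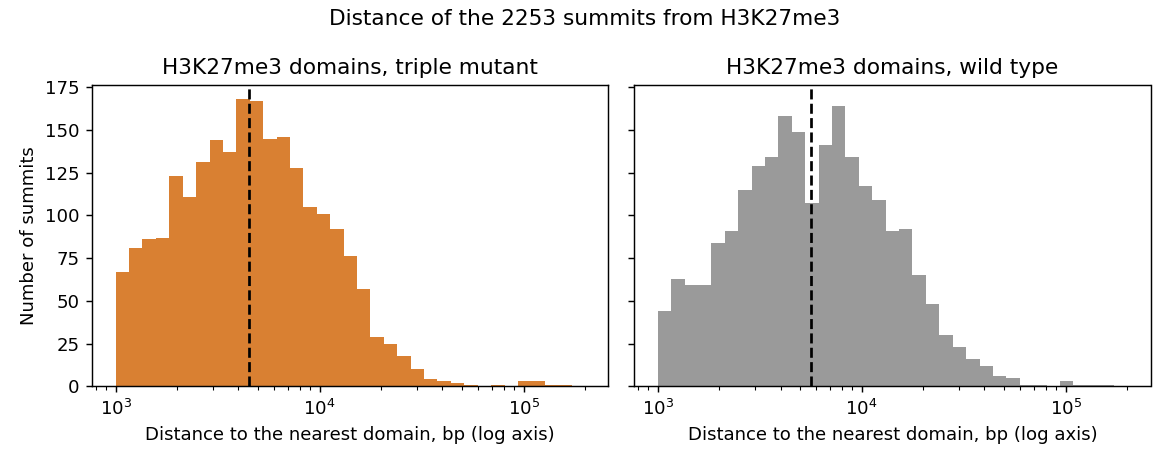
Distance from each of the 2253 distant summits to the nearest H3K27me3 domain in the triple mutant (left) and in the wild type (right), in bp on a log axis, against the number of summits; dashed lines are the medians. Medians were 4508 bp in the triple mutant and 5641 bp in the wild type, and no summit lies nearer than 1004 bp by the rule.

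Binding at distant summits spanned almost the full range of the list. Their median fold was 4.10 (quartiles 3.01 and 6.46), against 5.45 (3.47 and 9.88) at the 1959 summits inside a triple mutant domain but no wild-type domain, 4.50 (3.08 and 7.29) at the 785 summits outside both within 1 kb of a domain, and 3.21 (2.71 and 4.33) at the 396 summits inside a wild-type domain. Strong sites were present, though below the share of distant summits in the whole list. Of the 100 peaks of highest fold, which had folds of at least 19.5, 25 were distant, 62 lay inside a triple mutant domain only and 13 lay within 1 kb of a domain, whereas 0 lay inside a wild-type domain. The shares of these classes among all peaks were 41.8%, 36.3%, 14.6% and 7.34% in the same order. The median width of distant peaks was 643 bp, against 917 bp inside a triple mutant domain only, 661 bp within 1 kb of a domain, 572.5 bp inside a wild-type domain and 713 bp for all peaks. Among distant summits the median fold was similar at 4.02 from 1001 to 2000 bp, 4.16 from 2001 to 5000 bp, 4.16 from 5001 to 10000 bp and 3.96 from 10001 to 20000 bp from the mark.

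**Figure D2:**
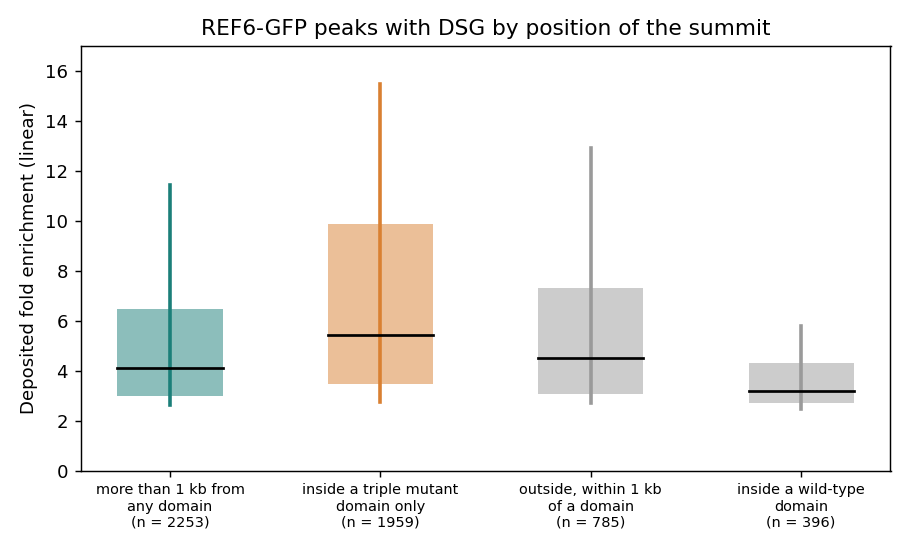
Deposited fold enrichment (linear axis) of REF6-GFP peaks with DSG in 4 classes of summit position; the black line is the median, the box spans the quartiles and the vertical line runs from the percentile below which 10% of peaks lie to that below which 90% lie. The median is 4.10 for distant summits, 5.45 for summits inside a triple mutant domain only and 3.21 for summits inside a wild-type domain.

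Within groups of similar fold, distant sites were found again without DSG slightly less often than other sites, or as often. A peak without DSG overlapped 1720 of the 2253 distant peaks by at least 1 bp, or 76.3% (74.5 to 78.1%), against 82.0% (80.6 to 83.3%) of the other 3140 peaks and 79.6% of all peaks. Within the 5 fold groups, from low to high, the share was 32.5%, 66.2%, 94.1%, 100% and 100% for distant peaks and 38.3%, 69.5%, 94.9%, 100% and 100% for the others, and the intervals of distant and other peaks overlapped in every group. For peaks inside a triple mutant domain only it was 41.1%, 74.1%, 96.6%, 100% and 100%. At distant sites the summits with and without DSG were a median of 21 bp apart, and 75% of them were within 43 bp. The median was 19 bp at other sites. Across the 1720 distant sites found in both lists, which share tissue and genotype, the folds with and without DSG had a Spearman correlation of 0.87, given as a description. It was 0.92 across the 2575 other sites found in both. The 533 distant peaks not found without DSG were weak, with a median fold of 2.81 and none above 5.09.

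Peaks of REF6-ZnF-GFP in the triple mutant overlapped 805 distant peaks, or 35.7% (33.8 to 37.7%), against 39.6% of the other peaks and 38.0% of all peaks. The share of distant peaks was 17.8% when peaks of the REF6-ZnF list had to reach a −log10 q of at least 10. This list has few peaks on chromosomes 4 and 5, where the share of distant peaks was 9.41%. On chromosomes 1 to 3 it was 51.7% (49.1 to 54.3%) for distant peaks, against 56.9% (54.7 to 59.2%) for the others, 60.5% (57.6 to 63.2%) for those inside a triple mutant domain only and 54.7% for all peaks there. Unlike the share found without DSG, it changed little with REF6-GFP fold for distant peaks, from 48.2% in the lowest group to 54.5% in the highest. It went from 44.6% to 62.4% for the other peaks and from 46.3% to 67.0% for those inside a triple mutant domain only. In the highest group the interval was 47.6 to 61.3% for distant peaks and 61.8 to 71.8% for those inside a triple mutant domain only. The REF6-ZnF summit lay a median of 139 bp from the REF6-GFP summit at distant sites, 163 bp at the others and 201 bp inside a triple mutant domain only. On chromosomes 1 to 3 the folds of REF6-GFP and REF6-ZnF had a Spearman correlation of 0.06 across the 725 distant sites found with both. It was −0.02 across the 1070 other sites found with both there. The much shorter REF6-ZnF list of ref6 overlapped 15 distant peaks (0.666%, 0.404 to 1.10%), against 39 (1.24%) of the other peaks, and the share of distant peaks was 0.0444% with the same limit on q and 0.178% when 50% of the peak had to be overlapped.

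**Figure D3:**
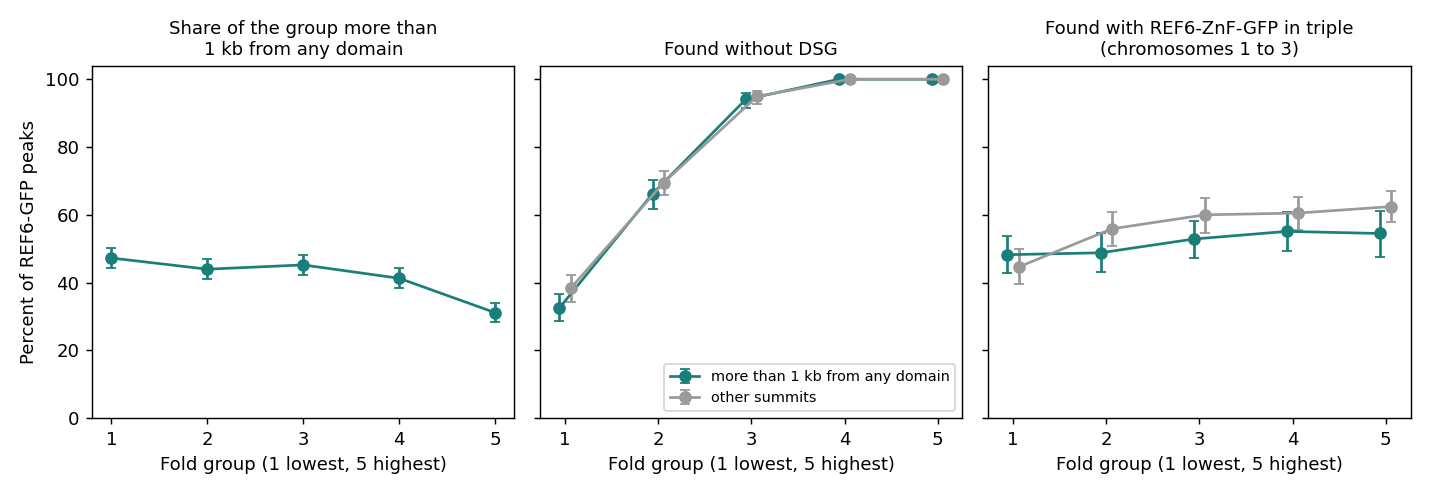
REF6-GFP peaks with DSG in 5 groups of fold, from lowest to highest on the horizontal axis, with percent of peaks on the vertical axis and Wilson 95% intervals as bars: the share that is distant (left), the share found without DSG (middle) and, for chromosomes 1 to 3, the share overlapped by REF6-ZnF-GFP of the triple mutant (right). The distant share is 47.3% in the lowest group and 31.1% in the highest, and distant peaks lie at or slightly below the other peaks for the list without DSG.

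Distant summits lay mostly within genes. A protein-coding gene body held 2007 of them, or 89.1% (87.7 to 90.3%), against 86.8% (85.3 to 88.3%) of summits inside a triple mutant domain only, 75.5% (72.4 to 78.4%) of those within 1 kb of a domain, 83.1% of those inside a wild-type domain and 85.9% of all summits. Another 192 (8.52%) lay outside gene bodies within 1 kb of a coding gene, and 54 (2.40%) had no coding gene that close. The 3480 genes for long noncoding RNAs held 77 distant summits (3.42%), against 162 of all summits (3.00%), and 26 of the 77 were outside every coding gene body. Transcribed pseudogenes, of which 926 are annotated, held 15 distant summits (0.666%), against 39 of all summits (0.723%). Genes annotated as miscellaneous RNA held 17 distant summits (0.755%), against 34 of all summits (0.630%). The 326 miRNA genes held 0 distant summits and only 2 of all summits, too few to compare.

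A distant summit lay in or within 1 kb of 3125 coding genes, 11.4% of the 27444 examined, and in the body of 1980. Any REF6-GFP summit lay that close to 6886 genes (25.1%), so that 45.4% (44.2 to 46.6%) of the genes with REF6-GFP nearby had it at a distant site. For 2961 of the 3125 genes every REF6-GFP summit was distant, and 90 also had a summit inside a triple mutant domain only. Because of how they were chosen, most had none of the mark over the body: 2913 (93.2%) had 0 coverage in both genotypes, as had 59.4% of all coding genes. Only 22 met a rule for gaining the mark (at least 50% of the body covered in the triple mutant and less than 10% in the wild type), which 6.29% of all coding genes met. The reverse rule was met by 0 of the 3125 genes and by only 0.565% of all coding genes, too few to compare. Since 1042 distant summits had more than 1 coding gene within 1 kb, a summit does not always name 1 gene.

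For ranking, each summit was given to the genes whose body held it or, where none did, to the genes within 1 kb. By this rule the 20 genes with a symbol and the strongest distant summits had folds of 18.2 to 24.7. The highest fold was 24.7 with DSG and 20.2 without, at chromosome 2, 18299942 to 18301635 (TAIR10, as all positions below), within 1 kb of ROL5 (AT2G44270), a tRNA modification gene. The nearest domain was 4524 bp away in the triple mutant and 4671 bp away in the wild type. GSR 1 (AT5G37600), which encodes a cytosolic glutamine synthetase, had a fold of 23.6 with DSG and 31.7 without in its body (chromosome 5, 14933304 to 14936009), 7497 bp from the mark. CSLA14 (AT3G56000), a cellulose synthase-like gene, followed with 22.6 with DSG and 24.9 without (chromosome 3, 20784054 to 20786294). Each of these genes had 0 H3K27me3 coverage in both genotypes.

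Several of these genes encode transcription factors. MYB6 (AT4G09460), of the MYB family, had a fold of 22.6 with DSG, 25.1 without and 3.44 with REF6-ZnF in the triple mutant (chromosome 4, 5992703 to 5994138). HB16 (AT4G40060), a homeodomain-leucine zipper gene, had 22.5 with DSG and 28.4 without (chromosome 4, 18571293 to 18573156). The WRKY genes, which act in defence and stress responses, supplied 3 of the leading 20. Of the 72 WRKY genes counted, 8 (11.1%) had a distant summit, near the 11.4% of all coding genes. A peak within 1 kb of WRKY60 (AT2G25000) had a fold of 22.1 with DSG and 26.96 without and lay 15096 bp from the mark, farther than any other of the leading 20. The peak in WRKY46 had 19.6 with DSG and 17.8 without, and that in WRKY15 had 18.9 with DSG and 12.9 without and lay 1774 bp from the mark.

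The remaining leading genes had folds of 18.2 to 21.2 with DSG. They were SEC14, which encodes a phosphatidylinositol transfer-like protein, the methionine aminopeptidase gene MAP1D, the carbonic anhydrase gene BCA6, the cell elongation gene LNG1, the ubiquitin ligase gene RING1, the stearoyl-ACP desaturase gene SSI2, the potassium transporter gene KT1, the cytochrome P450 gene CYP712A2, the wall-associated kinase-like gene WAKL2 and WAKL3, annotated as a transcribed pseudogene, under 1 shared peak, and HA3, which encodes a plasma membrane proton pump. All 20 had a peak without DSG, with folds of 12.9 to 31.7, as had 100% of distant and of other peaks in the highest fold group. Of the 20, 6 were overlapped by REF6-ZnF of the triple mutant, beside 35.7% of all distant peaks and 38.0% of all peaks. The mark reached into 3 of the 20 genes in the triple mutant. CYP712A2 was covered over 34.5% of its body in the triple mutant and 0% in the wild type, with the nearest domain 1097 bp from the summit. WAKL2 was covered over 45.5% in the triple mutant and 0% in the wild type, with the domain 1896 bp away. HA3 was covered over 31.2% in the triple mutant and 0% in the wild type, with the domain 1022 bp away.

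The REF6 gene itself was the third of the leading 20. Its peak (chromosome 3, 17934638 to 17940576) was the widest of the distant peaks at 5939 bp, had folds of 23.4 with DSG, 19.0 without, 8.91 with REF6-ZnF in the triple mutant and 3.87 with REF6-ZnF in ref6, and lay 11463 bp from the mark. The labels name a REF6 construct in each of these groups, so protein bound at the gene and extra copies of its DNA cannot be told apart. Of the 10 distant peaks that overlapped a peak in all 3 other REF6 lists, those in genes with a symbol were at REF6, DIN10 and GGH2. DIN10 (AT5G20250), a dark-inducible gene, had folds of 7.30, 4.51, 4.03 and 1.97 in the same order of lists, and GGH2 (AT1G78680), a gamma-glutamyl hydrolase gene, had 2.98, 2.28, 3.00 and 2.01.

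**Figure D4:**
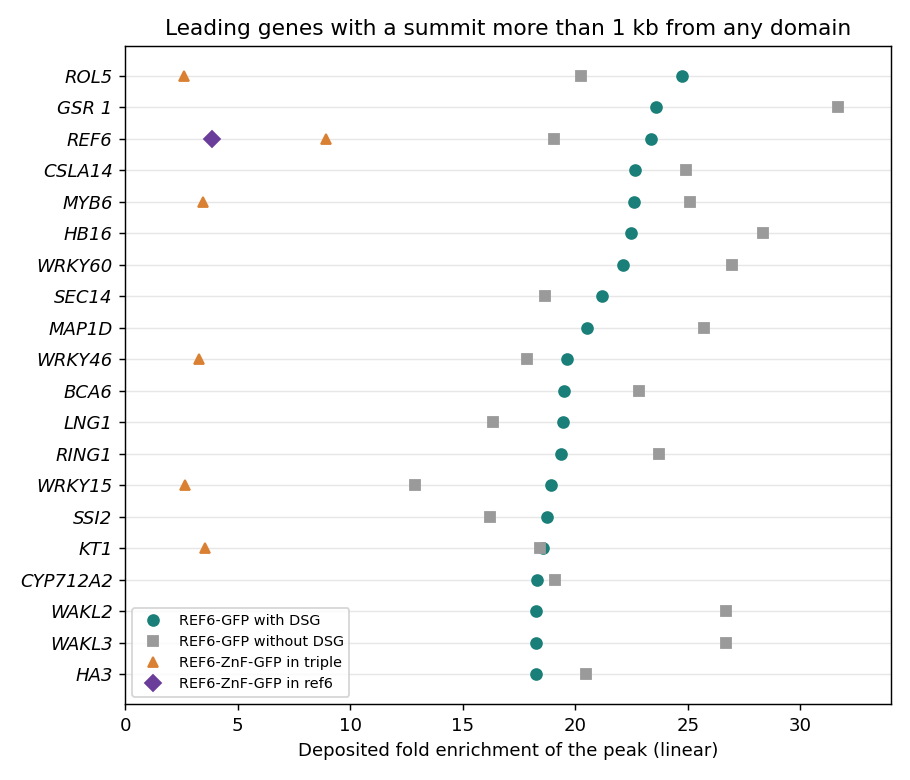
Deposited fold enrichment (linear axis) of the peak at each of the 20 genes with a symbol and the strongest distant summit, in the 4 REF6 lists; a missing symbol means that no peak of that list overlapped. Folds were 18.2 to 24.7 for REF6-GFP with DSG and 12.9 to 31.7 without DSG. REF6-ZnF-GFP in the triple mutant overlapped 6 of the 20, beside 35.7% of all distant peaks, and in ref6 it overlapped only REF6.

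A few sites were very far from the mark. Of the 7 distant summits over 50 kb from any domain, 4 lay between 4416704 and 4525747 of chromosome 2. The strongest of these, at 4524625 to 4525747, had a fold of 13.6 with DSG and 13.7 without, 124772 bp from the nearest triple mutant domain and 123138 bp from the nearest wild-type domain, and lay in no coding gene body. Only 3 of the 7 had a peak without DSG. Among genes with a symbol the farthest site was in BZO2H3 (AT5G28770), a bZIP transcription factor gene, at 73536 bp from the mark, but it had a fold of 2.96 with DSG and none without. FPS1, which encodes a farnesyl diphosphate synthase, followed at 34033 bp, and EDS1 (AT3G48090), a central regulator of immunity, at 33021 bp with folds of 3.08 with DSG, 2.60 without and 3.87 with REF6-ZnF in the triple mutant. EDS1 has a near-identical neighbouring copy, so reads there may be shared. SRF4 (AT3G13065), a receptor-like kinase gene, was the strongest of the farthest 10, with 14.7 with DSG and 19.7 without at 25817 bp. The others were CCB1, TIP2;2, ABCC3, VGT1, SEU and MNS1, at 24095 to 28863 bp and with folds of 3.93 to 6.38 with DSG. The abscisic acid gene HAB2 is not ranked, because the summit within 1 kb of it, 25348 bp from the mark, lay in the body of its neighbour AT1G17545. SEU encodes a corepressor of floral genes, and TIP2;2, ABCC3 and VGT1 encode transporters.

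Some genes held more than 1 distant summit. The body of 65 coding genes held 2 and that of 3 genes held 3. GH9B1 (AT1G70710), which encodes an endoglucanase of the cell wall, held 3, with folds of 2.81, 2.34 and 6.73 with DSG, and the pair with 2.34 and 6.73 overlapped the same peak without DSG, which had a fold of 4.57. SSI2 (AT2G43710) had a fold of 18.7 with DSG and 16.2 without at chromosome 2, 18122081 to 18123435, and of 7.84 with DSG and 4.71 without at 18119920 to 18120850. GRF1 (AT2G22840), a growth-regulating transcription factor gene, had 11.9 with DSG and 11.8 without at 1 site and 3.17 with DSG and 2.90 without at the other. HAM1 (AT2G45160), a shoot meristem regulator of the GRAS family, had 7.56 with DSG and 5.00 without at 1 site and 2.22 with DSG and 2.69 without at the other. Of the many genes tied at 2, those with the strongest distant peak are named, and the others were IQD13, MRB1, PPC1, CSLE1, MAN6 and ABCB21, each with 2 distant summits. In all 10 genes the mark covered 0% of the body in both genotypes.

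Hormone, light and metabolic pathways were examined through 11 gene lists with 195 members, described by counts beside the 11.4% of all coding genes with a distant summit in or within 1 kb. Among these lists light signalling had the highest share, 7 of 23 genes (30.4%), with a median fold of 3.31 over 8 peaks, below the 4.10 of all distant peaks. With REF6-GFP summits of any position counted, the share was 56.5% for light signalling and 64.3% for defence, against 25.1% of all coding genes. Among genes with any REF6-GFP summit, the distant share was 7 of 13 in light signalling and 4 of 9 in defence, near the 45.4% of all such genes. The 7 light signalling genes were the photoreceptor genes PHYA, PHYB, PHYE and PHOT2 and the transcription factor genes HY5, PIF3 and FHY3. HY5 (AT5G11260), which promotes light responses, had a fold of 7.86 with DSG and 4.37 without, 13020 bp from the mark. PHYA (AT1G09570) had 4.14 with DSG, 2.81 without and 4.78 with REF6-ZnF in the triple mutant. The peaks in PHYB and PHYE, at 2.33 and 2.81, had none without DSG. Each of the 7 genes had 0 coverage in both genotypes.

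Some relatives of these genes carried the mark in the triple mutant. The relatives named here have REF6-GFP summits that are not distant, and they were chosen after their values were seen. A summit inside a domain or within 1 kb of one is not distant by the rule, so these contrasts follow in part from the rule. PIF4 and PIF7, which act in shade and warmth, were covered over 60.3% and 72.2% of the body in the triple mutant and 0% in the wild type, whereas PIF3 had 0% in both. HYH, the homologue of HY5, was covered over 46.8% in the triple mutant and 0% in the wild type. Among genes of chlorophyll synthesis and photosynthesis, 5 of 23 (21.7%) had a distant summit, PORB, PORC, LHCA1, LHCB6 and PSAD-2. PORB and PORC encode light-dependent protochlorophyllide oxidoreductases and had folds of 4.71 and 5.44 with DSG and 6.14 and 4.37 without. Both had 0% coverage in both genotypes, although PORB also has a summit that is not distant. Their relative PORA was covered over 62.5% in the triple mutant and 0% in the wild type. LHCB6, a light-harvesting protein gene, had 5.90 with DSG and 5.53 without. Not every relative with a summit that is not distant was marked, as LHCA2 had such a summit and 0% coverage in both genotypes. A peak within 1 kb of PSAD-2 had 3.15 with DSG, none without, 8.77 with REF6-ZnF in the triple mutant and 2.59 with REF6-ZnF in ref6.

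Brassinosteroid genes held 4 distant members of 21 (19.0%). Any REF6-GFP summit lay near 47.6% of the list, against 25.1% of all coding genes. Among those 10 genes the distant share was 4 of 10, near the 45.4% of all such genes. The median fold of 9.53 over 4 peaks spans folds of 2.65 to 16.4. The receptor gene BRL1 (AT1G55610) had 16.4 with DSG, 14.1 without and 5.85 with REF6-ZnF in the triple mutant (peak of 2002 bp, 7026 bp from the mark). BEH4 (AT1G78700), of the BES1/BZR1 transcription factor family, had 14.5 with DSG and 11.3 without, 2888 bp from the mark. Both had 0% coverage in both genotypes, although BEH4 also has a summit that is not distant. The family member BEH1, whose summit is not distant, was covered over 60.8% in the triple mutant and 0% in the wild type. This contrast too follows in part from the rule. CPD, a brassinosteroid synthesis gene, had 4.56 with DSG and 3.11 without and was covered over 27.3% in the triple mutant and 24.4% in the wild type. BRL3 had 2.65 with DSG and none without, 1081 bp from the mark.

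Of the auxin response genes, 3 of 15 (20.0%) had a distant summit and none had any other REF6-GFP summit. They were the auxin receptor gene AFB1 and the auxin response factor genes ARF3 and ARF5. ARF3 (AT2G33860), which acts in gynoecium and organ polarity, had the highest fold, 11.3 with DSG, 11.1 without and 3.01 with REF6-ZnF in the triple mutant. AFB1 had 5.89 with DSG and 5.28 without, and ARF5 (MONOPTEROS) had 4.27 with DSG and 3.92 without. All 15 genes of this list had 0% coverage in both genotypes, but 12 of them had no REF6-GFP summit. The same held for all 10 reference genes and for 59.4% of all coding genes, so it is not read as particular to this list. In the abscisic acid list 3 of 16 (18.8%) had one, the phosphatase genes ABI1 and HAB2 and the kinase gene SNRK2.3, with folds of 2.74 to 3.35 with DSG and 3.06 to 3.74 without.

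The defence list held 4 of 14 (28.6%). Besides EDS1 and WRKY60, FLS2 (AT5G46330), the receptor for bacterial flagellin, had 5.53 with DSG and 6.31 without, and was covered over 18.6% in the triple mutant and 0% in the wild type. WRKY18 had 2.54 with DSG and none without. The chromatin list held 3 of 24 (12.5%), close to the background. Besides REF6 they were the histone deacetylase gene HDA19, with 7.23 with DSG and 7.54 without, and the histone methyltransferase gene ATX1, with 2.56 with DSG and none without. The circadian clock list held 2 of 20, ELF3 with 3.17 with DSG and 2.64 without and RVE1 with 4.63 with DSG and 2.74 without. Flowering time genes held 1 of 17 (5.88%), FRI, with 2.55 with DSG and none without. None of 12 ethylene genes and none of 10 reference genes had a distant summit, against 3 and 1 with another REF6-GFP summit. At the background of 11.4% few genes would be counted in lists this small, so these counts of 0 are not read as a difference.

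**Figure D5:**
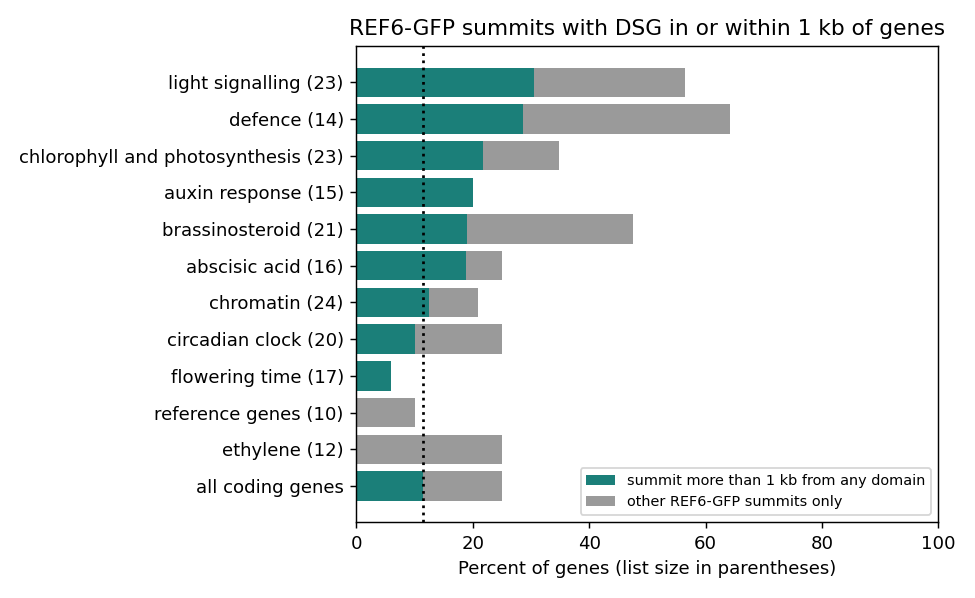
Percent of the genes of each list, with its size in parentheses, that had a distant summit in or within 1 kb (green) or only other REF6-GFP summits (grey); the dotted line is the 11.4% of all coding genes with a distant summit. Light signalling (30.4%) and defence (28.6%) had the highest shares of distant summits and also large shares of other summits. The ethylene and reference lists had 0 distant summits but are too small for a difference to be read.

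The share of REF6-GFP genes with a distant summit varied across 30 gene families, against 45.4% of all genes with a REF6-GFP summit. The families named here were chosen after their values were seen. The share was 3 of 23 in the NAC, 2 of 23 in the AGAMOUS-like MADS-box, 4 of 26 in the MYB, 1 of 14 in the glutathione transferase, 14 of 78 in the cytochrome P450 and 0 of 5 in the STP sugar transporter family. It was 4 of 5 in the TCP factors, 3 of 3 in the auxin response factors and 6 of 9 in the aquaporins. It was 4 of 6 in the bHLH factors and 3 of 5 in the cytosolic ribosomal proteins. These families and the STP family have too few genes with a REF6-GFP summit for a difference to be read. The calcium-dependent protein kinases, with 7 of 14, were near the share of all genes. The sets counted need not hold every member of a family, and the bHLH set has 22 genes and the ribosomal set 24. In the bHLH set 0 genes gained the mark, so PIF4 and PIF7, which gained it, are not in that set. The mark was gained in the triple mutant by 16 of 100 NAC and 15 of 98 AGAMOUS-like genes, by 7 of 125 MYB genes, and by 0 of 22 TCP, 0 of 25 auxin response factor and 0 of 35 aquaporin genes, beside the 6.29% of all coding genes. At that background few genes would be counted in families as small as the last 3, so their counts of 0 are not read as a difference. A summit inside a domain or within 1 kb of one is not distant by the rule. The gains and the distant shares therefore rest on the same domain calls and are not separate observations. The WRKY family, with 8 of 19, was near the share of all genes.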

How the data were processed

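The deposited files are 4 REF6 peak lists and 2 H3K27me3 domain lists, without headers, read in the column order of MACS2. The submitters' processing notes list the TAIR10 build and, as tools, MACS2 2.1.0, deepTools, Picard 2.60 and Bowtie 1.1.2, with no settings. The deposited fold is a ratio of pooled ChIP to a control chosen by the authors; the input used is not given in the sources, and lists may share one. The −log10 q is likewise deposited by the authors for every peak, as are a score that was not used and the summit offset in bp. The read depth is not used here. Samples were grouped by title, and 8 of the 23 samples (input DNA and histone H3) were not analysed here.

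Summits are peak start plus deposited offset, and distances were counted to the nearest domain base. Overlap meant at least 1 bp. Genes came from a RefSeq table of TAIR10.1, whose use was checked by shifting: 89.1% of distant summits fell in coding gene bodies, against 66.4% and 66.1% after shifts of 20 kb either way. All 195 list members matched by locus. Distances, overlaps and coverage were computed with Python 3.11.15, pandas 2.3.3 and numpy 2.4.6, and intervals with scipy 1.17.1, and were tested on simulated data. Genes were named where they had a symbol and were among the 20 of highest fold, the 10 farthest, the 10 with most distant summits in the body (ties by fold) or those in all REF6 lists (at most 10), or were list members. The members, lists and rules were chosen with earlier results of these data known, and the 30 families after the files were read. Alternatives varied the distance, domain and peak limits, the overlap and the gene window. No genome sequence was used here, so the planned motif search was not run.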

Additional observations from a re-analysis of the deposited data

How the results depend on the processing

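No paired analysis was possible because each group has 1 list called on its pooled samples; for the same reason no replicate could be left out. Of 48 alternative values, 28 stayed within the counting interval of the reported value, or within 1.5 times it for counts. The 2253 distant summits became 914 at more than 5 kb, 1169 with a fold of at least 4 and 4023 by the wild-type list alone. The 3125 genes became 1692 with a fold of at least 4 and 1980 by gene body only. The share in gene bodies was 87.5% at more than 500 bp and 90.3% with a fold of at least 4, and the median fold was then 6.29. The share found without DSG was 98.8% with a fold of at least 4 and 74.5% with an overlap of 50% of the peak. The share found with REF6-ZnF-GFP in the triple mutant was 37.98% with a fold of at least 4, 26.0% with the 50% overlap, 17.8% with −log10 q of at least 10 in that list and 51.7% on chromosomes 1 to 3. In ref6 it was 0.178% with the 50% overlap and 0.0444% with −log10 q of at least 10. The share of genes with 0 coverage was 97.0% at more than 2 kb, 87.4% at more than 500 bp, 96.1% with domains of −log10 q of at least 10 and 95.6% by gene body only. The cause of these moves was not tested, beyond what fewer peaks or other limits set by construction. Depth limits the calls: a domain too weak to be called counts as no mark.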
